A study of Mus musculus with 8 samples.

Results

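The 9 genes described here, Mrc1, Cd163, Stab1, Lyve1, Folr2, Slco2b1, F13a1, Cbr2 and Pf4, are used as markers of border macrophages, the resident macrophages of meninges, perivascular spaces and similar tissue borders. They were taken by name from the deposited table of 54854 genes, not by a threshold on any measured value. The set was, however, chosen with earlier results of these data known. All 9 were found, and 7 had enough reads to be tested, whereas Folr2 and Pf4 did not. RNA came from the pituitary of C57BL/6N mice, 5 weeks old. The treated group consisted of 4 animals exposed to AFS98, a neutralising antibody against CD115, the receptor for colony-stimulating factor 1 that Csf1r encodes. The other 4 animals were exposed to 2A3, a rat IgG2a isotype control antibody. The antibody was first given to the pregnant dam (3 mg, intraperitoneal, E6.5), and doses of 100 µg at P2, 150 µg at P14 and 200 µg at 4 weeks followed. Replicate 1 of either group was a female, and replicates 2 to 4 were males. Because exposure began in the dam and the labels name no litters, litter and antibody cannot be told apart.

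Border macrophages take up material from blood and tissue fluid, and many of their marker genes encode receptors and enzymes for this clearance. Most tissue macrophages need signals through CD115 to survive, which is why antibodies against this receptor are used to deplete them. Several of the 9 genes are also known outside macrophages. Lyve1 and Stab1 are expressed by lymphatic or sinusoidal endothelium, Pf4 by megakaryocytes and platelets, and F13a1 by monocytes and platelets.

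The upstream sequences of 4 members are shown to set the 2 genes that fell, Mrc1 and Slco2b1, beside 2 that did not pass the test, F13a1 and Stab1. They are RefSeq promoter windows (GRCm38.p6), ending at the base before the gene start in GENCODE, and written 5′ to 3′ on the strand of the gene. Capitals mark matches on either strand to GAGGAAG, a short form of the site bound by PU.1, the transcription factor encoded by Spi1.
Mrc1 chr2:14229164-14229391 (+ strand): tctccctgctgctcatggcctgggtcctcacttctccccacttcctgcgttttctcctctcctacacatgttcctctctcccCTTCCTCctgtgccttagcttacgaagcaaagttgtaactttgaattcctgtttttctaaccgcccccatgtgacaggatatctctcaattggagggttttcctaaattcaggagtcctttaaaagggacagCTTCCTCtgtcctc
Slco2b1 chr7:99711341-99711590 (- strand): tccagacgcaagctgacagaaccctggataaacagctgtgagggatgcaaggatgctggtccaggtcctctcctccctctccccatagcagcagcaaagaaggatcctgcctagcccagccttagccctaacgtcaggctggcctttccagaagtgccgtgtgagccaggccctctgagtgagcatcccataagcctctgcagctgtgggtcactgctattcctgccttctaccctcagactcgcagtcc
F13a1 chr13:37050245-37050494 (- strand): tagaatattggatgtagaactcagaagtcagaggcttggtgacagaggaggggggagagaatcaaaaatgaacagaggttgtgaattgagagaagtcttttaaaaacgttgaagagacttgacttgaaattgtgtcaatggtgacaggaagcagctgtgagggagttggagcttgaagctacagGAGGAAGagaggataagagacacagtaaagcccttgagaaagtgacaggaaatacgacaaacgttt
Stab1 chr14:31168642-31168891 (- strand): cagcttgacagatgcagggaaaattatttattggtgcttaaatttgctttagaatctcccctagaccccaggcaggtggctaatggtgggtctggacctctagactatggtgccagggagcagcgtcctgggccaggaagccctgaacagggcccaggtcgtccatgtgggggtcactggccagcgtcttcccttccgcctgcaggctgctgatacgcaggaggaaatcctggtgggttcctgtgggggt

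Within 250 bases upstream of a RefSeq start, GAGGAAG occurred in 5 of the 12 windows of the 8 members that had one, and in 10.6% of all 32851 windows. These windows belonged to 5 members, while Cd163, Stab1 and Folr2 had no match. Windows of the same gene are not independent, and no share per gene was computed over all genes, so enrichment was not tested. Mrc1 held 2 matches, beginning 168 and 36 bases before its RefSeq start, and F13a1 held 1, at 66 bases. Cbr2 held 1 match at 79 bases and Pf4 held 1 at 9 bases. The Slco2b1 match lay 226 bases before another of its starts, and not in the window printed above. The Maf half-site TGCTGAC (3.81% of all windows) and the E-box CACGTG (6.02%), searched on both strands, occurred in 0 of the 12 member windows. Matches of letters do not show that a factor binds there, and a match was found both in genes that fell and in genes that did not pass the test.

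Total counts ran from 23289819 to 36218096 per library, and TMM factors, which correct library size for composition, lay between 0.941 and 1.05. Pituitary markers, among them growth hormone, prolactin and proopiomelanocortin, summed to 206848 to 297849 CPM (TMM-normalised counts per 1e+06 counts) in anti-CD115 glands and 235113 to 293970 CPM in isotype glands. Csf1r, the gene of CD115, averaged 4.18 ± 2.52 CPM in anti-CD115 glands and 32.9 ± 6.86 CPM in isotype glands (SD, n = 4 each). A list of 15 core macrophage genes, Csf1r among them and none of the 9 members, had 14 that fell, with a median log2 fold change of -2.88. For comparison, the median over all 17723 genes tested was 0.00406.

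**Figure D1:**
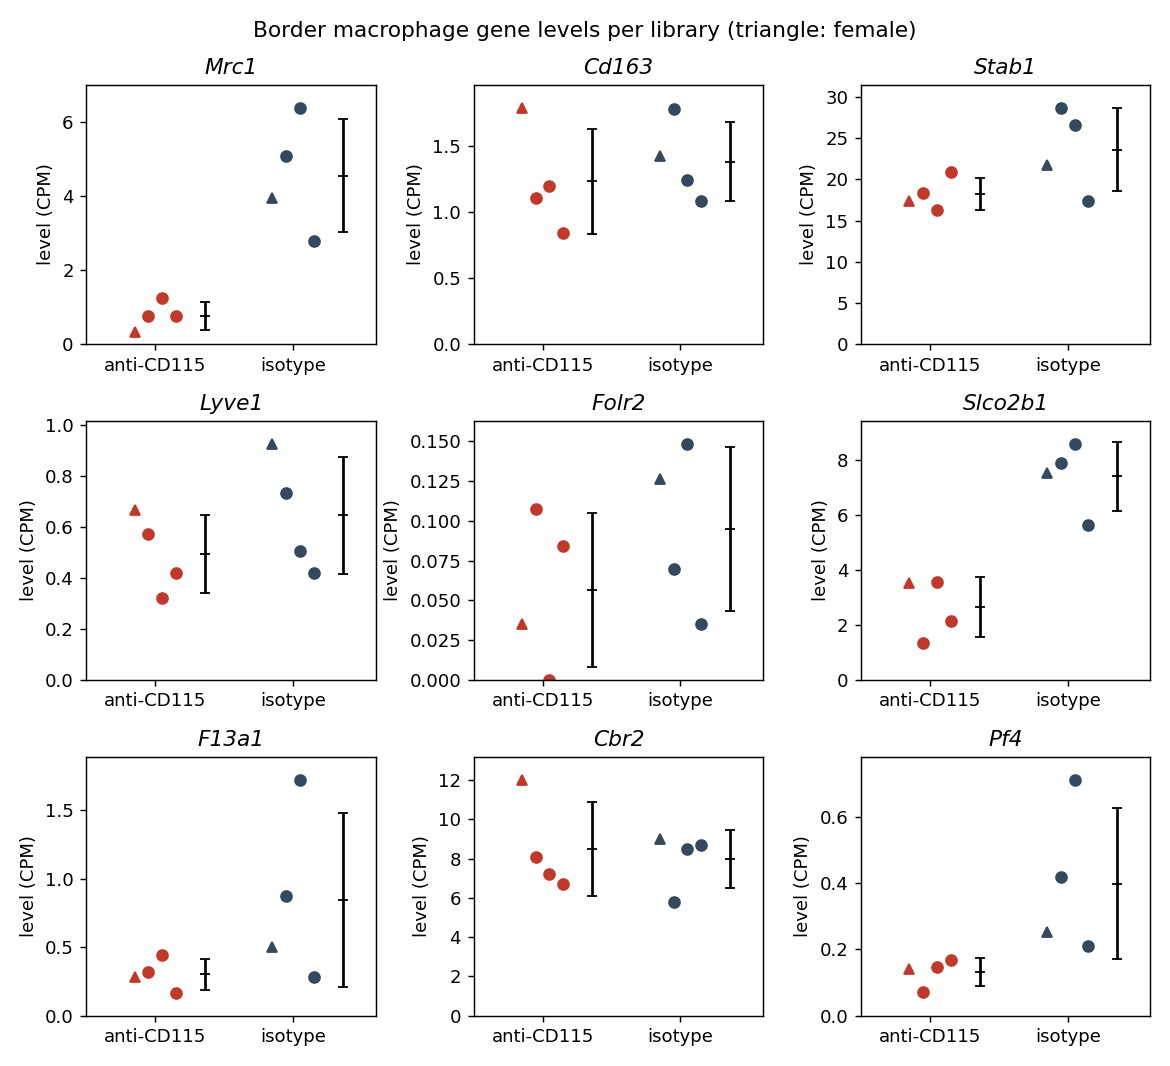
Level of each of the 9 genes in every library, in TMM-normalised CPM on linear axes from 0; triangles are females, circles males, and black bars give the mean and SD of 4 libraries. Mrc1, Slco2b1 and Pf4 are lower in every anti-CD115 gland than in every isotype gland, and the groups overlap for the other 6 genes.

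Of the 7 members tested, 2 fell with anti-CD115, Mrc1 and Slco2b1, and 0 rose (edgeR quasi-likelihood test with a sex term, Benjamini-Hochberg adjusted p below 0.05 over all genes). Across all genes tested, 0.869% passed, with 0.829% that fell and 0.0395% that rose. The median log2 fold change of the 7 was -0.38, and 6 of them had values below 0. At an unadjusted p below 0.05 there were 4 of the 7, Stab1 and F13a1 in addition, against 10.3% of all genes. In 2 of the 7, Mrc1 and Slco2b1, every anti-CD115 library lay below every isotype library, an arrangement found for 3.31% of all genes tested. Pf4, which was not tested, showed it too, on few reads. Since the members were chosen with earlier results of these data known, the shares of all genes are background and no independent test. Among the 7 tested members, log2 fold changes ran from -2.60 for Mrc1 to 0.06 for Cbr2. In whole-gland RNA, fewer cells of a type and less RNA per cell cannot be told apart.

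Mrc1 (ENSMUSG00000026712, chromosome 2, 14229392 to 14332057, GRCm38) encodes the macrophage mannose receptor, CD206, a C-type lectin that internalises mannose-bearing glycoproteins. Its level was 0.316, 0.750, 1.23 and 0.757 CPM in anti-CD115 replicates 1 to 4, against 3.95, 5.07, 6.37 and 2.80 CPM in isotype replicates 1 to 4. The lowest isotype gland was above the highest anti-CD115 gland, and the anti-CD115 female was the lowest of all 8. Mrc1 was 6.06-fold lower (log2 fold change -2.60, SE 0.34, 95% interval -3.34 to -1.86, edgeR adjusted p = 0.00408). Its interval overlapped that of Csf1r, which had a log2 fold change of -3.01 (SE 0.37). The locus also holds the microRNA gene Mir511, which had 0 counts in these mRNA libraries and shares no exon with Mrc1.

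Cd163 (ENSMUSG00000008845, chromosome 6, 124304656 to 124330527) encodes the receptor that clears haemoglobin bound to haptoglobin. It stood at 1.79, 1.11, 1.20 and 0.841 CPM in anti-CD115 glands, against 1.43, 1.78, 1.24 and 1.08 CPM in isotype glands. The ranges nearly coincided, and the highest values were those of the anti-CD115 female and isotype replicate 2. The log2 fold change was -0.19 (SE 0.26, 95% interval -0.77 to 0.38, edgeR adjusted p = 0.841). This interval does not reach the fall of Mrc1, but it leaves room for a level up to 1.70-fold lower.

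Stab1 (ENSMUSG00000042286, chromosome 14, 31139013 to 31168641) encodes stabilin-1, a large scavenger receptor of macrophages and sinusoidal endothelium that takes up modified lipoproteins. It had 17.4, 18.3, 16.2 and 20.9 CPM in anti-CD115 glands, against 21.8, 28.6, 26.7 and 17.4 CPM in isotype glands. The anti-CD115 glands lay close together, while 1 isotype gland, replicate 4, fell among them. The log2 fold change was -0.38 (SE 0.15, 95% interval -0.71 to -0.04), with an unadjusted p of 0.0312 and an edgeR adjusted p of 0.435. The intervals of Mrc1 and Stab1 did not overlap. Stab1 shares 112 exon bases, 1.09% of its exons, with Nt5dc2 on the opposite strand, whose own log2 fold change was 0.03.

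Stab2, the sinusoidal endothelial relative of Stab1, had a log2 fold change of -0.07 (SE 0.16, edgeR adjusted p = 0.919). Of 9 blood endothelial markers, 0 passed in either direction in edgeR (4 at an unadjusted p below 0.05, 0 in DESeq2), all 9 had values above 0, and the list had a median log2 fold change of 0.28. Summed, they reached 524 to 591 CPM in anti-CD115 glands and 351 to 519 CPM in isotype glands. The sinusoidal list, which includes Stab2 and the Fc receptor gene Fcgr2b, had 1 of 4 tested genes fall, Fcgr2b (-2.29), and its defining marker Clec4g had 1 count in all libraries together. Its sum was 18.6 to 20.3 CPM in anti-CD115 glands and 16.1 to 23.8 CPM in isotype glands. The part of endothelial cells in the Stab1 level was not tested.

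Lyve1 (ENSMUSG00000030787, chromosome 7, 110850607 to 110863239) encodes a hyaluronan receptor of lymphatic endothelium and of some tissue macrophages. It was at 0.666, 0.571, 0.323 and 0.421 CPM in anti-CD115 glands, against 0.924, 0.735, 0.504 and 0.419 CPM in isotype glands. The groups overlapped, and the female was the highest library in each. These levels rest on 56 reads in the anti-CD115 group and 72 in the isotype group. The log2 fold change was -0.38 (SE 0.32, 95% interval -1.08 to 0.32, edgeR adjusted p = 0.728). Lymphatic endothelial markers had 0 of 5 tested genes pass in edgeR (2 at an unadjusted p below 0.05, 0 in DESeq2) and a median log2 fold change of 0.07. Their sum was 143 to 186 CPM in anti-CD115 glands and 111 to 197 CPM in isotype glands. The transcription factor gene Prox1 supplied much of it, averaging 89.7 CPM in anti-CD115 glands and 106 CPM in isotype glands, and the lymphatic chemokine gene Ccl21a had 1 count in all libraries together. The part of lymphatic cells in the Lyve1 level was not tested.

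Folr2 (ENSMUSG00000032725, chromosome 7, 101839988 to 101857194) encodes folate receptor beta, which binds folate at the macrophage surface. It had 1, 3, 0 and 2 reads in anti-CD115 glands, against 3, 2, 5 and 1 reads in isotype glands, at or below the floor of 3 reads in all but 1 library. No difference was detectable at this depth, as the ratio of summed reads, scaled by library size, was 0.547 with an exact binomial 95% interval of 0.166 to 1.61. Such intervals cover counting error only. A further limit is the antisense gene Gm10602, which shares 975 bases, or 63.1%, of the Folr2 exons, and whose reads cannot be parted from those of Folr2 unless counting used the strand.

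Slco2b1 (ENSMUSG00000030737, chromosome 7, 99657804 to 99711340) encodes an organic anion transporter of the plasma membrane. Its level was 3.51, 1.32, 3.55 and 2.15 CPM in anti-CD115 glands, against 7.52, 7.87, 8.56 and 5.63 CPM in isotype glands. Every anti-CD115 gland was below every isotype gland, and replicate 2 was the lowest. Slco2b1 was 2.83-fold lower (log2 fold change -1.50, SE 0.28, 95% interval -2.11 to -0.89, edgeR adjusted p = 0.0320). The call was not firm. It ended without anti-CD115 replicate 1 (edgeR adjusted p = 0.0611) or 4 (0.116), and without isotype replicate 1 (0.0665), 2 (0.0986) or 3 (0.0835). It also ended with males only (0.0651), and the log2 fold changes were -1.39 to -1.64 in these fits. With a sex term, the fits without replicate 1 of either group rest on the same male contrast as males only. They are not separate checks. The antisense genes Gm15635 and Gm34280 share 7.91% and 1.31% of its exons and had 42 and 5 reads in all.

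F13a1 (ENSMUSG00000039109, chromosome 13, 36867178 to 37050244) encodes the A chain of coagulation factor XIII, a transglutaminase that cross-links fibrin. It stood at 0.281, 0.321, 0.440 and 0.168 CPM in anti-CD115 glands, against 0.504, 0.875, 1.72 and 0.280 CPM in isotype glands. The isotype glands differed 6.15-fold among themselves, and replicate 4 of that group fell within the range of the treated glands. The log2 fold change was -1.43 (SE 0.53, 95% interval -2.61 to -0.25), with an unadjusted p of 0.0220 and an edgeR adjusted p of 0.388. Without isotype replicate 3 it was -0.84.

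Cbr2 (ENSMUSG00000025150, chromosome 11, 120729489 to 120732114) encodes a carbonyl reductase, an enzyme that reduces reactive carbonyl compounds. Its level was 11.995, 8.07, 7.19 and 6.69 CPM in anti-CD115 glands, against 8.99, 5.81, 8.50 and 8.67 CPM in isotype glands. The groups overlapped, with the anti-CD115 female highest and isotype replicate 2 lowest. The log2 fold change was 0.06 (SE 0.16, 95% interval -0.31 to 0.42, edgeR adjusted p = 0.940), so that a fall of more than 1.24-fold lies outside the interval. The sign of this small value turned without either female or without isotype replicate 2 (-0.07 to -0.04).

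Pf4 (ENSMUSG00000029373, chromosome 5, 90772435 to 90773383) encodes the chemokine CXCL4, stored in platelet granules. It had 4, 2, 5 and 4 reads in anti-CD115 glands, against 6, 12, 24 and 6 reads in isotype glands. These were 0.140, 0.0714, 0.147 and 0.168 CPM in anti-CD115 glands, against 0.252, 0.420, 0.711 and 0.210 CPM in isotype glands, so that the groups did not overlap. The ratio of summed reads was 0.314 (exact binomial 95% interval 0.163 to 0.570, counting error only). Fitted without the low-count filter, Pf4 had a log2 fold change of -1.56 (SE 0.57, edgeR adjusted p = 0.243) and was not called.

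Of 11 platelet and megakaryocyte markers, 3 had enough reads to be tested and 0 passed in edgeR (0 at an unadjusted p below 0.05, 0 in DESeq2), with a median log2 fold change of -0.15. Their sum was 4.80 to 5.87 CPM in anti-CD115 glands and 5.13 to 6.19 CPM in isotype glands. Most of that sum was the integrin gene Itga2b, which averaged 3.77 CPM in anti-CD115 glands and 3.69 CPM in isotype glands. Red blood cell transcripts, of which 0 of 5 passed in edgeR (0 at an unadjusted p below 0.05, 0 in DESeq2), summed to 138 to 443 CPM in anti-CD115 glands and 204 to 401 CPM in isotype glands. The monocyte list had 0 of 5 tested genes pass in edgeR (1 at an unadjusted p below 0.05, 0 in DESeq2), with a median log2 fold change of -0.28, and its sum was 28.9 to 38.3 CPM in anti-CD115 glands and 25.4 to 57.4 CPM in isotype glands. Isotype replicate 3 was the highest and replicate 4 the lowest of that group for this sum. The same held for Mrc1, Folr2, Slco2b1, F13a1 and Pf4, and for the sums of microglia, fibroblast and blood endothelial markers. Most of the microglia sum was Sparc, which averaged 302 CPM in anti-CD115 glands and 308 CPM in isotype glands. The part of monocytes and platelets in F13a1 and Pf4 was not tested.

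**Figure D2:**
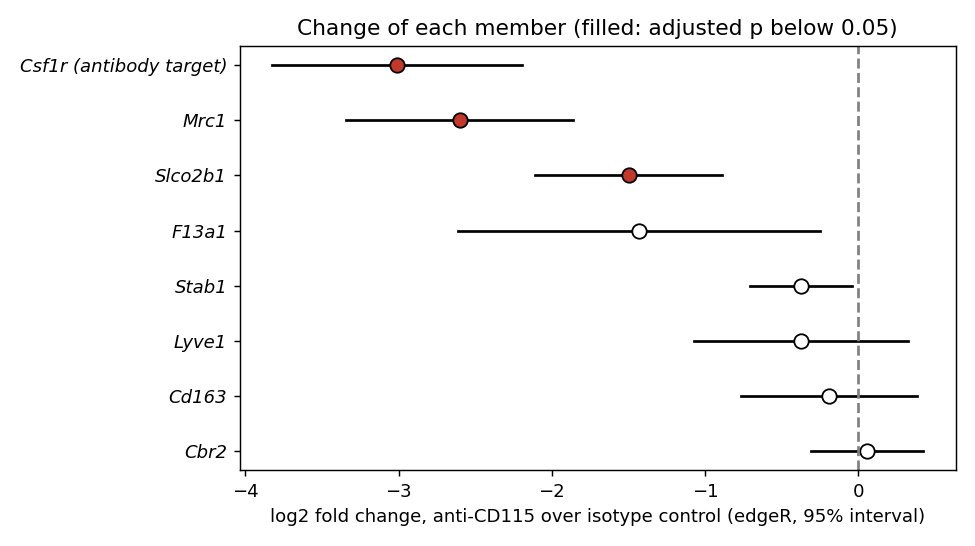
Log2 fold change, anti-CD115 over isotype control, of the 7 members with enough reads and of Csf1r, with 95% intervals from the edgeR fit of 8 libraries; filled points passed at an adjusted p below 0.05. Csf1r (-3.01), Mrc1 (-2.60) and Slco2b1 (-1.50) passed, and Cbr2 (0.06), Cd163 (-0.19) and Lyve1 (-0.38) have intervals that include 0.

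Per length, the members were weakly expressed in isotype glands, where the median over all tested genes was 3.82 FPKM (the authors' fragments per kilobase of gene length, scaled to library size). Cbr2 was the only member above that median. Its deposited FPKM averaged 6.36 ± 1.80 in anti-CD115 glands and 5.97 ± 1.09 in isotype glands (SD, n = 4 each), the highest of the 9 in both. Stab1 came next, at 1.76 ± 0.195 FPKM in anti-CD115 glands and 2.28 ± 0.484 FPKM in isotype glands. Slco2b1 followed, at 0.439 ± 0.182 FPKM in anti-CD115 glands and 1.23 ± 0.205 FPKM in isotype glands. In both groups the ranges of Cbr2 and Stab1 were separate, as were those of Stab1 and Slco2b1, whereas the 6 pairs of neighbours below them overlapped. Mrc1 held position 7 in anti-CD115 glands, at 0.119 ± 0.0584 FPKM, and position 4 in isotype glands, at 0.707 ± 0.235 FPKM. Cd163 held position 4 in anti-CD115 glands, at 0.225 ± 0.0726 FPKM, and position 6 in isotype glands, at 0.252 ± 0.0554 FPKM. F13a1, at 0.0447 ± 0.0165 FPKM in anti-CD115 glands and 0.124 ± 0.0921 FPKM in isotype glands, and Folr2 were the lowest in both.

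To set each member against the core macrophage list, its CPM was expressed as a percentage of the summed CPM of the 15 core macrophage genes. The sum includes Mertk, the core gene that did not pass (log2 fold change -0.26, edgeR adjusted p = 0.705). Mertk averaged 3.61 CPM in anti-CD115 glands, with 3.43 CPM in replicate 2, against 4.32 CPM in isotype glands. The core sum was 58.7, 20.8, 63.9 and 39.1 CPM in anti-CD115 replicates 1 to 4, against 244, 309, 354 and 292 CPM in isotype replicates 1 to 4. A gene that kept its level therefore has a higher percentage in anti-CD115 glands by construction. In all, 9 such ratios were compared by two-sided exact permutation of the 8 libraries, unadjusted, and the smallest p this design allows is 0.0286.

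The Mrc1 level equalled 0.567%, 3.69%, 1.95% and 1.99% of the core sum in anti-CD115 glands, against 1.63%, 1.65%, 1.80% and 0.965% in isotype glands. The anti-CD115 values surrounded the isotype ones, and the difference in log2 ratio was 0.20 (exact permutation p = 0.743). The direction rested on single libraries: without anti-CD115 replicate 2 the difference was -0.17, and without replicate 1 it was 0.73 (exact permutation p = 0.0286).

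The Slco2b1 level equalled 6.00%, 6.44%, 5.58% and 5.54% of the core sum in anti-CD115 glands, against 3.09%, 2.55%, 2.42% and 1.94% in isotype glands. The anti-CD115 percentages differed by only 1.16-fold between the highest and the lowest gland, although the core sum itself differed from 20.8 to 63.9 CPM. By the mean log2 ratio they were 2.38-fold higher than in isotype glands (exact permutation p = 0.0286). Relative to its isotype level, Slco2b1 thus fell less than the core sum did.

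Stab1, which is no part of the core sum, equalled 29.6%, 88.2%, 25.4% and 53.5% of it in anti-CD115 glands, against 8.94%, 9.26%, 7.54% and 5.96% in isotype glands. For Cbr2 the difference in log2 ratio was 2.90, for Cd163 it was 2.64, for Stab1 2.48 and for Lyve1 2.47, with an exact permutation p of 0.0286 each. Because the core sum was far lower in every anti-CD115 gland, a gene that kept its level can be expected to reach this p. It therefore tests no change of the member itself. Pf4 gave 1.45 (exact permutation p = 0.0286), F13a1 1.63 (0.0571) and Folr2, with its few reads, 1.97 (0.143). For Pf4 and Lyve1 the p also changed when some single libraries were left out. All anti-CD115 ratios still lay above all isotype ratios. Fewer libraries allow fewer splits, so the higher p shows no loss of this separation. That of Pf4 rose without any 1 of the 4 anti-CD115 libraries and that of Lyve1 without isotype replicate 2, 3 or 4 (exact permutation p = 0.0571 in each case).

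**Figure D3:**
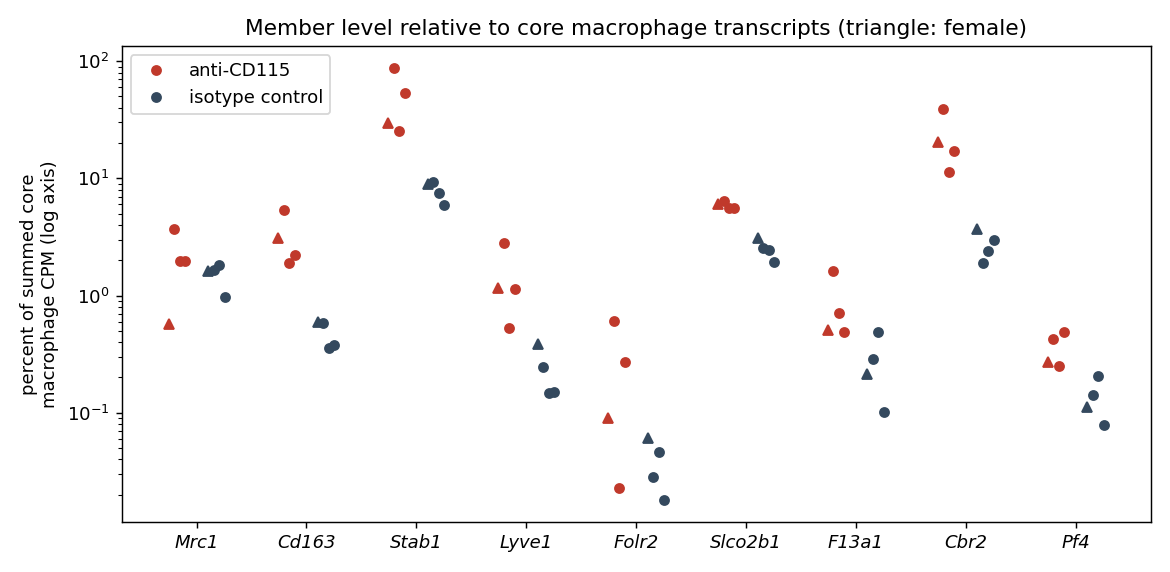
Level of each member as a percentage of the summed CPM of 15 core macrophage genes in each library, on a log axis; triangles are females. For Mrc1 the anti-CD115 points surround the isotype points, while for Slco2b1, Cd163, Stab1, Lyve1, Cbr2 and Pf4 all anti-CD115 points lie above.

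**Figure D4:**
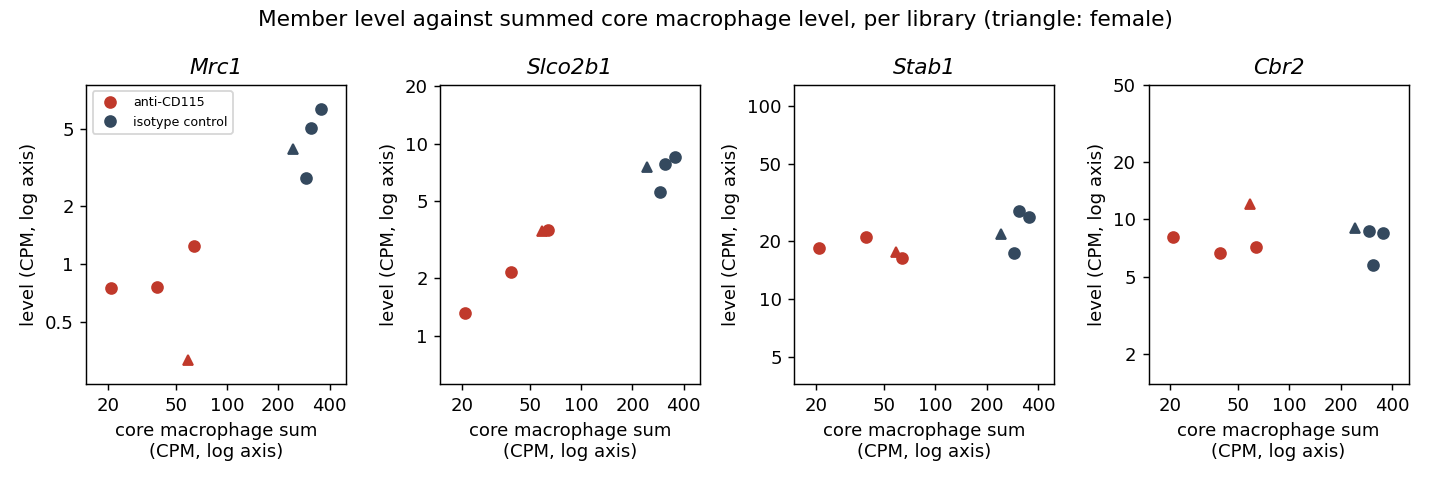
CPM of 4 members against the summed CPM of the core macrophage genes, both on log axes, with 1 point per library and triangles for females. Among the anti-CD115 glands Slco2b1 is lowest where the core sum is lowest (1.32 CPM at 20.8 CPM). Mrc1 is lowest in the female (0.316 CPM at 58.7 CPM). Cbr2 stays near its isotype level, and Stab1 averages 18.2 CPM against 23.6 CPM in isotype glands, with overlapping ranges.

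Sex was compared with 1 female in each group, on the assumption that females vary as males do. None of the 7 members tested differed between the females and the males (edgeR adjusted p below 0.05; 0 by DESeq2 or limma-voom; 0.491% of all genes), and 1 had an unadjusted p below 0.05, against 9.09% of all genes. That gene was Cbr2, with a female minus male log2 difference of 0.48 (SE 0.19, adjusted p = 0.433). Lyve1 gave 0.68 (SE 0.35, adjusted p = 0.629). The antibody effect did not differ between the sexes at an adjusted p below 0.05 for any of the 7 members (0.0395% of all genes), and at an unadjusted p below 0.05 there were 0 (3.2% of all genes); DESeq2 and limma-voom called 0. For Mrc1 the log2 difference was -3.57 in the female pair and -2.31 between the male means, and the interaction was -1.27 (SE 0.80, edgeR adjusted p = 1.00). A difference of this size was not detectable with 1 female per group.

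The genes whose levels ran most like each member over the 8 libraries were found by the root mean square difference of log2 CPM, each gene centred on its own mean, among 15478 genes averaging at least 1 CPM. For Mrc1 these were the Fc receptor gene Fcgr1 (0.43), Spi1 (0.44) and Spn, which encodes the leukocyte sialoglycoprotein CD43 (0.49). For Slco2b1 they were Selplg, the gene of a selectin ligand of leukocytes (0.23), the Toll-like receptor relative Cd180 (0.26) and Evi2a (0.29). Their log2 fold changes were -1.43 (Cd180) to -2.81 (Fcgr1). Because neighbours were chosen on the same 8 libraries, their changes follow from the choice.

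For Stab1 the nearest were the transcription factor gene Maf (0.11), which is in the list of further border macrophage genes, Rps4x-ps (0.12) and Gm6274 (0.13), and for Cd163 they were Bche (0.12), Npas2 and Tcea2 (0.14 each). Lyve1 was nearest to Klhl41 (0.19), Qrfpr and Gpr160 (0.20 each), and Cbr2 to Gm5914 (0.12), Fsd1 and Armc2 (0.15 each). F13a1 was nearest to C4b (0.47), Slc7a11 (0.48) and Slc13a3 (0.51). Among the members, Cd163 and Lyve1 were the closest pair (0.34) and Mrc1 and Cbr2 the farthest (1.57).

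Other genes of scavenging and of border macrophages were read from 5 further lists. Of 20 scavenger receptor genes, 14 were tested, 1 fell and 0 rose, with a median log2 fold change of -0.07. The gene that fell was Cd68, which is also in the core list and encodes a lysosomal glycoprotein of macrophages (log2 fold change -2.30). Cxcl16, the gene of a scavenger receptor and chemokine, gave -0.67 (edgeR adjusted p = 0.0563), and Scarb1, the receptor gene for high-density lipoprotein, gave 0.19 (adjusted p = 0.462). Msr1, the classical macrophage scavenger receptor gene, had 56 reads in all libraries and Marco had 0. Msr1 was not tested, and averaged 0.0896 CPM in anti-CD115 glands and 0.402 CPM in isotype glands, with overlapping ranges.

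Of 14 C-type lectin genes of endocytosis, 6 were tested and 2 fell, with a median log2 fold change of -0.25. They were Clec7a, which encodes the beta-glucan receptor dectin-1 (-1.83, adjusted p = 0.0217), and Clec12a (-1.29, adjusted p = 0.0395), while Pla2r1 gave -0.42 (adjusted p = 0.437). Clec10a had 31 reads in all, Cd209f had 3 and Cd209g had 0. Of 18 further genes linked to border macrophages, 13 were tested and 3 fell, with a median of -0.17. These were Ms4a7 (-3.14), Ms4a6c (-2.93) and Apoe, which encodes a lipid carrier (-0.95).

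Of 9 tested genes of haem and haemoglobin clearance, the pathway downstream of Cd163, 0 passed in edgeR (0 at an unadjusted p below 0.05, 0 in DESeq2; median log2 fold change 0.04). Hmox1, which encodes haem oxygenase-1, gave 0.21 (SE 0.17), and the ferritin genes Fth1 and Ftl1 gave -0.09 and -0.08, with edgeR adjusted p of 0.720 or more. Of 16 tested relatives of Folr2, Slco2b1, Cbr2, F13a1 and Pf4, 0 passed in edgeR (3 at an unadjusted p below 0.05, 0 in DESeq2; median -0.01). Dcxr, a carbonyl reductase gene, gave -0.55 (adjusted p = 0.323), the folate receptor alpha gene Folr1 gave 0.25 (adjusted p = 0.443) and the transporter gene Slco3a1 gave 0.25 (adjusted p = 0.338). In the unfiltered edgeR fit and in DESeq2, Mrc1 and Slco2b1 were again the members called.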

How the data were processed

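Pituitary mRNA of 8 mice was measured by RNA-seq with a stranded mRNA kit from 100 ng of total RNA each, per the labels. Per the submitters' processing notes, HISAT2 2.0.5, StringTie 1.3.3b, featureCounts 1.5.0-p3 and build GRCm38 were used; settings and strandedness of counting are not given in the sources used here. The authors deposited whole-number read counts per gene and FPKM values; dividing counts by length and FPKM gave 1 library size each, at 94.6% to 106% of total counts. Columns were matched to samples by the labels.

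The test was edgeR 4.0.16 (R 4.3.3): filterByExpr, TMM scaling, and the quasi-likelihood test over all 8 libraries with sex and treatment, Benjamini-Hochberg adjusted over 17723 genes, threshold 0.05. The SE is the log2 fold change divided by the root of F. Ratios to the core list used a prior of 0.5 counts. The fit was tested on simulated data. Unnamed assembled loci (322) stayed in the fit and took 0.0866% to 0.120% of counts. DESeq2 1.42.0 and limma 3.58.1 served as alternatives. P-values measure the spread between these samples, which the labels call biological replicates.

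The members and lists were chosen with earlier results of these data known. Named genes are all 9 members, the 3 nearest genes of each tested member, and from each list the called genes, filled up to 3 by lowest p; untested genes and cell type markers named singly were picked after their values were seen. The lists hold 16 sets, 11 of them cell type markers; in edgeR the fibroblast, microglia, pituitary and brain sets had 0, 5, 0 and 0 genes that passed, all 5 lower, against 0, 6, 0 and 1 in DESeq2 and 0, 6, 1 and 1 at an unadjusted p below 0.05.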

Additional observations from a re-analysis of the deposited data

Results flagged for a closer look

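Cbr2 in isotype control replicate 2, at 5.81 CPM, lay apart from the other 3 isotype glands, which held 8.50 to 8.99 CPM. Its gap to the nearest of them was 0.847 of the whole range of the group, above the 95% critical value of Dixon's test for 4 samples. Chance alone flags about 1 in 20 such groups, and 18 groups were examined. Without this library the log2 fold change of Cbr2 was -0.04 (edgeR adjusted p = 0.938).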

How the results depend on the processing

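Mrc1 kept its direction in all 19 alternative fits and its call in 18; it ended with unfiltered log2(FPKM + 1) (-0.60, adjusted p = 0.1197). Leaving out 1 library at a time gave log2 fold changes of -2.90 to -2.35 for Mrc1 and -1.77 to -1.28 for Slco2b1. Slco2b1 kept its direction in all 19 and its call in 12, and with unfiltered log2(FPKM + 1) it gave -0.64 (adjusted p = 0.180). Members called were 2 in the reported fit, 1 with males only, 0 with unfiltered log2(FPKM + 1), and 1 to 2 without single libraries. Genes called in all were 154, of which 147 fell; DESeq2 called 268, no low-count filter 487, unfiltered log2(FPKM + 1) 67, and fits without single libraries 89 (anti-CD115 replicate 4) to 120, with 101 without anti-CD115 replicate 2. Listed genes called were 25, with 13 for unfiltered log2(FPKM + 1) and 16 to 22 without single libraries. Cbr2 turned sign with males only (-0.063), without anti-CD115 replicate 1 (-0.065), without isotype replicate 1 (-0.063) and without isotype replicate 2 (-0.040), and its highest value without a single library was 0.15; Cd163 ran from -0.37 to 0.00128, the last without isotype replicate 2. The cause was not tested. Of these fits, those with males only and without replicate 1 of either group rest on the same male contrast and are not separate checks.

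Ratios to the core sum, without single libraries, ran from -0.17 to 0.73 for Mrc1 (-0.17 without anti-CD115 replicate 2, -0.000841 without isotype replicate 4), 2.05 to 2.86 for Lyve1, 1.25 to 2.82 for Folr2, 1.23 to 1.98 for F13a1 and 1.22 to 1.69 for Pf4. With a prior of 2 counts Folr2 (2.38) and F13a1 (1.75) had an exact permutation p of 0.0286, as did F13a1 in FPKM (1.90).

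Deviations of same-numbered libraries correlated across 15478 genes at 0.443, -0.0819, 0.0713 and 0.314 for numbers 1 to 4. Numbers 1 and 4 were each their own best match and 2 and 3 were not, so the numbers were not taken to pair the samples. With a replicate block in place of sex, 118 genes and the same 2 members were called. With the replicate block the ratio differences of Cd163 (2.64), Stab1 (2.48), Lyve1 (2.47), Slco2b1 (1.25), Cbr2 (2.90) and Pf4 (1.45) had an exact permutation p of 0.125, the smallest that 4 pairs allow. Depth limits Folr2 and Pf4 most.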
